A study of Mus musculus with 2 samples.

Results

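The genes described here are those of the cell cycle engine: cyclins A, B, D and E, the cyclin-dependent kinases (CDKs) and their inhibitors, the E2F factors with the retinoblastoma (pocket) proteins, the MCM helicase genes, and a short set of replication and mitosis genes. They were chosen by the gene symbol that the peak annotation gives. Symbols that begin with Ccna, Ccnb, Ccnd, Ccne, Cdk, E2f or Mcm and a number, or with Cdkn, Cdc25 or Aurk, were joined by Rb1, Rbl1, Rbl2, Cdc6, Cdc20, Plk1, Mki67, Pcna, Top2a, Foxm1 and Trp53. In all, 75 genes with 168 peaks were found among the 16934 genes and 63316 peaks of the table, and they lie on 18 chromosomes. Of the 75 genes, 41 had 1 peak and 9 had 5 or more. Plk1, Aurka, Aurkb, Mcm4, Cdk5 and Cdkn1c are not analysed here. The rule also takes in 13 genes that share only the start of a symbol or encode partners of a kinase, such as Cdk5rap2 and Aurkaip1, and these were kept as a group of their own.

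Chromatin accessibility was measured by ATAC-seq, in which a transposase cuts open DNA, in primary murine cardiac fibroblasts. Both conditions received TGF-β, which drives fibroblasts towards the contractile, matrix-secreting myofibroblast state. The control received scrambled siRNA (SCR, titled NC in the labels) and the other condition received an siRNA against the mechanosensitive channel Piezo2 (siPiezo2). There was 1 library per condition and no library without TGF-β, so no difference below has a replicate check and no test was made. The labels give neither the strain, sex and age of the mice nor whether animals were pooled, and a knockdown by transfected siRNA is usually transient and partial. The series is described elsewhere in its record by a Tet3 knockout with Cre, whereas the sample labels and the study's legend name siPiezo2, and the labels were followed.

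A cell commits to division when cyclin D with CDK4 or CDK6 and cyclin E with CDK2 phosphorylate the pocket proteins and free E2F factors, which switch on the genes of DNA replication. The inhibitors of the INK4 type (Cdkn2a to Cdkn2d) act on CDK4 and CDK6, and those of the CIP/KIP type (Cdkn1a, Cdkn1b) act on CDK2 and other cyclin-CDK complexes. Later, the MuvB complex with B-Myb and FOXM1 switches on the genes of mitosis through an element called CHR, often next to CCAAT boxes. In an injured heart, fibroblasts divide before and while they turn into myofibroblasts.

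The values are read densities that the authors normalized between the libraries. They come from the reads in a window of 2000 bp around the summit of each peak, per kb and after the authors' fit, and the whole reads could be recovered for 100% of the peaks. Over all peaks, 4615335 reads were recovered in SCR and 2754046 in siPiezo2, and over the member peaks 13875 and 8243. A member peak held a median of 70 reads in SCR, with a range of 23 to 352, and of 43.5 in siPiezo2, with a range of 12 to 245. The log2 ratio is that of siPiezo2 over SCR after 1 was added to each density, the density of a gene is the sum over its peaks, and a gene or peak was called lower or higher when the ratio passed 1.5-fold. Intervals are exact (Clopper-Pearson) 95% intervals from the reads and cover counting error only. The siRNA acts on RNA, so the peaks of Piezo2 do not check the knockdown. Its 14 peaks summed to 334 and 242, which is -0.46 as a log2 ratio. The fibroblast label was checked on markers. Of 11 fibroblast genes 9 had a peak, all 9 at most 1 kb from a TSS (transcription start site), with summed densities of 1306 and 1092; Lum and Thy1 had none. Among 8 cardiomyocyte genes Myh6, Nppa, Myl2, Tnni3 and Nkx2-5 had no peak, and the other 3 summed to 146 and 152. No start of 7 leukocyte genes and 1 start of 8 endothelial genes had a peak, and the summed densities were 307 and 281 for the former and 627 and 625 for the latter. For 7 smooth muscle and pericyte genes, 3 with a peak at the start, the sums were 645 and 517, and for 4 epicardial genes, 3 with a peak at the start, they were 113 and 108. The part of these levels in the results below was not tested.

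As a whole, the cell cycle genes stayed close to the rest of the genome. Their median log2 ratio was -0.068 (quartiles -0.29 and 0.12), against -0.093 (quartiles -0.29 and 0.10) over all genes. Of the 75 genes, 45 had a ratio below 0 and 30 above 0, which is 60% below 0, against 62.6% of all genes. In the siPiezo2 library 7 genes (9.33%) were lower by more than 1.5-fold, namely Ccnb2, Rbl1, Cdk16, Cdc20, Ccne2, Rb1 and Foxm1, where 6.6% of all genes were lower. There 1 gene (1.33%), Cdk4, was higher, where 1.54% of all genes were. The split of these calls depends on the scaling between the libraries. With a median-of-ratios scaling, which moves the median of all genes up by 0.14, 1 gene (Ccnb2, 1.33%) was lower and 3 (Cdk4, E2f6 and E2f7, 4.0%) were higher, against 3.67% and 3.83% of all genes. With equal totals over all peaks, 2 (Ccnb2 and Rbl1, 2.67%) were lower and 2 (Cdk4 and E2f7) higher, against 4.54% and 2.70%. With the recovered reads at equal totals, 3 (Ccnb2, Cdc20 and Cdk16, 4.0%) were lower and 1 (E2f7) was higher, against 2.80% and 4.37%. Ccnb2 was thus lower under each of these scalings.

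**Figure D1:**
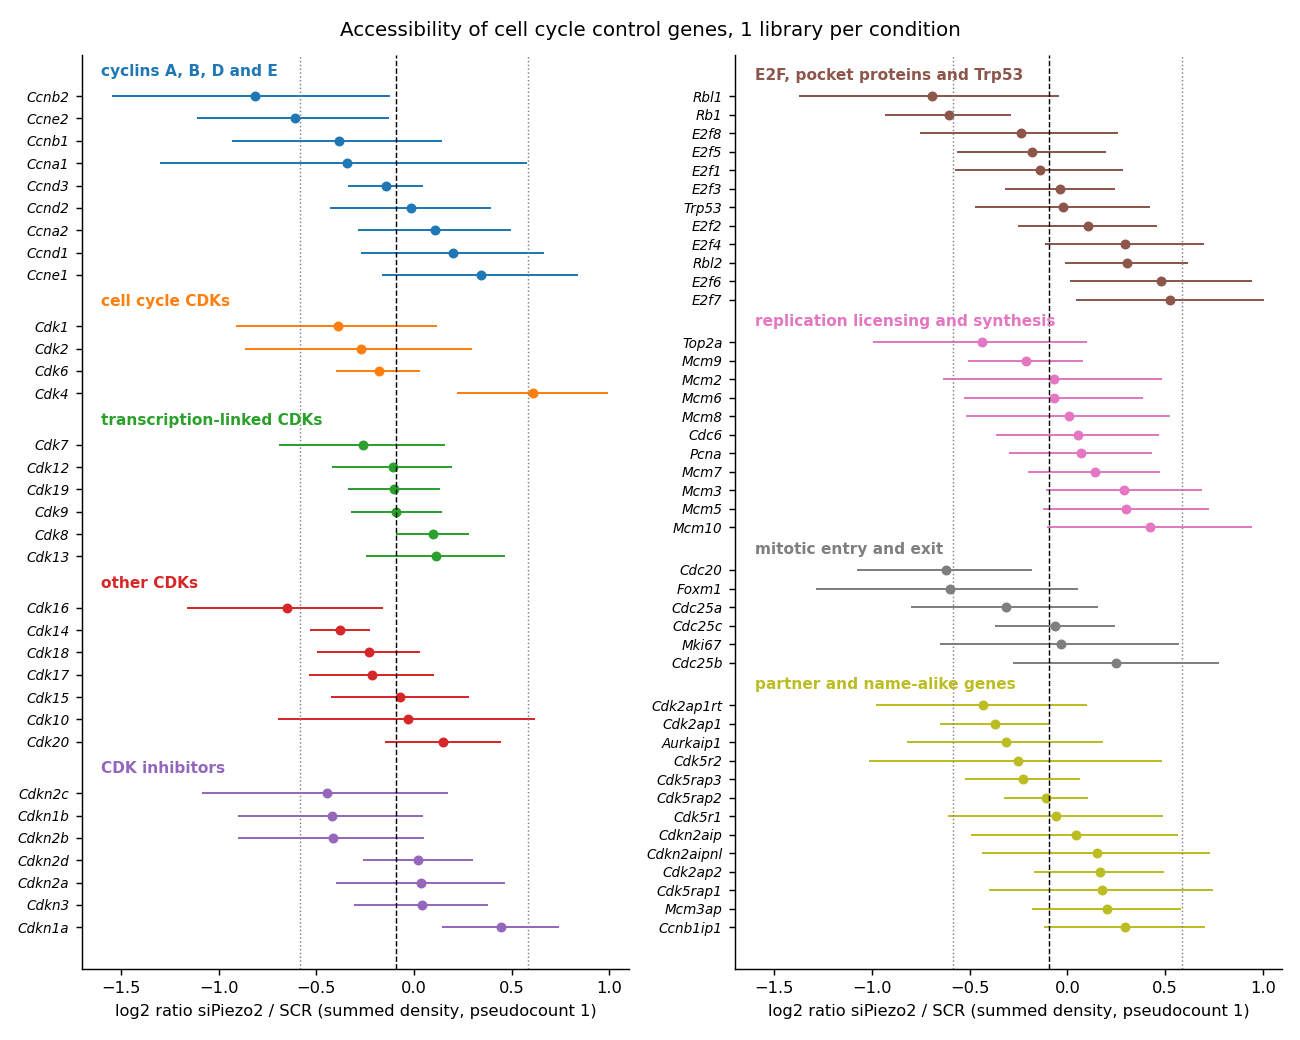
Each point is 1 of the 75 genes, and the x axis is the log2 ratio of the summed density in siPiezo2 over SCR, with a pseudocount of 1. Horizontal lines are 95% counting intervals, colours are role groups, the dashed line is the median of all genes (-0.093) and the dotted lines mark 1.5-fold. Ccnb2 lies farthest to the left at -0.81 and Cdk4 farthest to the right at 0.61.

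The counting intervals gave a second reading of the genes. In 8 genes (10.7%) the interval lay below 0, namely Ccnb2, Ccne2, Cdc20, Cdk14, Cdk16, Cdk2ap1, Rb1 and Rbl1, against 15.2% of all genes. In 4 genes (5.33%) it lay above 0, namely Cdk4, Cdkn1a, E2f6 and E2f7, against 4.37%. Peaks called in both libraries scatter more than counting allows, with a variance of 2.15 times the counting variance. Intervals widened by this factor lay below 0 in 2 genes (2.67%), Cdk14 and Rb1, against 6.66% of all genes, and above 0 in 2 genes (2.67%), Cdk4 and Cdkn1a, against 1.43%. Where windows of a gene overlap, reads are counted more than once in these intervals. Windows that share no reads were formed by position. The first peak along the chromosome was kept from each overlap and the next left out, whatever its strength or gene. This kept a peak in 72 members and 16614 genes, while Trp53, Pcna and Cdkn2aip lost theirs. Cdk2ap1, Ccne2 and Cdkn1a, each resting on fewer peaks, no longer excluded 0. The interval then lay below 0 in 6 genes (8.33%), against 13.6% of all genes, and above 0 in 3 (4.17%), against 3.79%. Widened, it lay below 0 in Cdk14 and Rb1 (2.78%), against 5.41%, and above 0 in Cdk4 alone (1.39%), against 1.14%.

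Promoters of some members are printed first. Sequences are from RefSeq promoters of the mouse assembly GRCm38.p6, matched by symbol for 61 of the 75 genes (70 promoters, each from 250 bases before to 50 after the start). The 130 bases just before the start are printed 5′ to 3′ on the strand of the gene, and capitals mark the letters named. The first set shows genes of mitosis and others whose promoters hold both CHR letters (TTTGAA) and CCAAT letters on either strand, and includes 3 of the genes lower by more than 1.5-fold (Ccnb2, Cdc20 and Cdk16). It was chosen by the ratios: the first 5 are the lowest of the 10 such genes with a peak near a TSS, and Mki67 is a level one.
Cdc20, chr4:118437344-118437473, minus strand: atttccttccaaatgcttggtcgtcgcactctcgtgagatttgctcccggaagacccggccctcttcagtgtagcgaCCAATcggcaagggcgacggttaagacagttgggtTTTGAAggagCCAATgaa
Cdk1, chr10:69352913-69353042, minus strand: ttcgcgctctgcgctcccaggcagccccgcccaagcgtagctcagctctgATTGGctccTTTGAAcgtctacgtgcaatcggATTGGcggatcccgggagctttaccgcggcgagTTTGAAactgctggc
Top2a, chr11:99024190-99024319, minus strand: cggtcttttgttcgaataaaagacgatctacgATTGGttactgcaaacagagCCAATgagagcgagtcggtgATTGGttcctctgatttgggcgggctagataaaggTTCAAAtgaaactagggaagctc
Ccnb2, chr9:70421555-70421684, minus strand: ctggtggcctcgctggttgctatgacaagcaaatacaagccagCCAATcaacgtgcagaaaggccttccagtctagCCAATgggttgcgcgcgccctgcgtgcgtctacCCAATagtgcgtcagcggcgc
Cdk16, chrX:20687824-20687953, plus strand: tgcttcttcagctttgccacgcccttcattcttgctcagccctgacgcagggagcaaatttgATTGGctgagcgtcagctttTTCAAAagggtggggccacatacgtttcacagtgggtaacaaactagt
Mki67, chr7:135716380-135716509, minus strand: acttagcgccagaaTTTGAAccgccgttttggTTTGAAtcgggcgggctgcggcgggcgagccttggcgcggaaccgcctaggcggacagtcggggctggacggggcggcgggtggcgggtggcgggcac
In Cdk1 a CHR match lies 15 bases before the start, in Cdc20 it lies 18 before and in Top2a 23 before. Cdc20 carries CCAAT letters 53 and 8 bases before the start, and Top2a carries them at 98, 78 and 58 bases before it. Ccnb2 carries 3 CCAAT boxes, at 87, 54 and 21 bases before its start, and its CHR letters lie outside the stretch shown. Cdk16 has CHR letters at 48 and CCAAT letters at 68 bases before the start shown. A second RefSeq start of Cdk16 has neither in its 130 bases, and which start its peak belongs to was not determined. Mki67 has CHR letters at 116 and 98 bases before the start, and its CCAAT letters lie outside the stretch.

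The second set shows E2F letters (TTTCGCGC, TTTGGCGC, TTTCCCGC or TTTGCCGC on either strand), which stand in the promoters of Mcm3, Mcm5, Mcm6, Mcm7 and Mcm8, and the pair of starts of Cdkn2a, whose ratios had opposite signs.
Mcm6, chr1:128359706-128359835, minus strand: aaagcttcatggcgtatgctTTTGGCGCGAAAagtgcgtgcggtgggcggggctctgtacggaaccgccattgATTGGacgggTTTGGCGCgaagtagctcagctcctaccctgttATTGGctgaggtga
Cdkn2a upstream start, chr4:89294620-89294749, minus strand: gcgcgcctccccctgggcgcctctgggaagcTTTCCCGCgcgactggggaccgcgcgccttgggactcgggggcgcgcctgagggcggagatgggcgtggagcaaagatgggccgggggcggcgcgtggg
Cdkn2a downstream start, chr4:89282193-89282322, minus strand: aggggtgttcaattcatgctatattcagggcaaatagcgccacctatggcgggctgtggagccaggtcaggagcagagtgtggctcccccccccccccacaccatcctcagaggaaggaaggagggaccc
Mcm6 carries E2F letters at 110 and 106 bases before the start, which overlap, and again at 47 before it. The upstream start of Cdkn2a carries E2F letters at 99 bases before it, and the downstream start has none in the stretch shown. The third shows the promoter of Cdk4, the only gene called higher, with its E-box letters (CACGTG, bound by MYC and related factors) in capitals. That motif was added after the value of Cdk4 was seen.
Cdk4, chr10:127063405-127063534, plus strand: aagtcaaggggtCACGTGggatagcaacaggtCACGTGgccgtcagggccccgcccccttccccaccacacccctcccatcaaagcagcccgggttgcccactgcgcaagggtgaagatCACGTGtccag
In this stretch E-box letters lie 118, 98 and 11 bases before the start of Cdk4.

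Among the members, promoters with both CHR and CCAAT letters had lower ratios than the others. This combination was formed after the values were seen and is a description. It was found in 11 of 61 member genes (18.0%) and in 7.97% of all 27025 genes with a promoter in the table. Among those with a peak within 1 kb of a TSS, it was found in 10 of 55 members and 515 of 8761 genes. For these 10 members, the median log2 ratio of the densities near the TSS was -0.31, with 9 of 10 below 0. For the other 45 members with such a peak it was 0.037. All 515 genes with both sets of letters and such a peak had a median of -0.092, and 57.5% of them were below 0. The order ran from Ccnb2 (-0.81), Cdk16 (-0.65), Cdc20 (-0.62), Top2a (-0.44) and Cdk1 (-0.39) to E2f8 (-0.24), E2f3 (-0.10), Mcm2 (-0.070), Mki67 (-0.034) and Cdkn3 (0.041). The median of the 10 was -0.18 with the median-of-ratios scaling, when that of the 515 genes was 0.044, and -0.27 with the recovered reads at equal totals, when that of the 515 was 0.0012. Counts below 0 were then 6 and 7 of 10, against 43.9% and 49.7% of the 515.

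E2F letters were found in 14 of the 61 member genes (23.0%), against 2.6% of all genes. Among genes with a peak near a TSS, they were found in 12 of 55 members and 391 of 8761 genes. These 12 members had a median of 0.088, with 4 below 0, and all 391 genes with E2F letters and such a peak had 0.013, with 48.3% below 0. Values ran from Cdk1 (-0.39), Cdc25a (-0.32) and Cdk2 (-0.27) to Mcm3 (0.29), Mcm5 (0.30), Mcm6 (0.36) and E2f7 (0.46). Cdk1 and E2f3 were the 2 genes in both sets. Alone, CHR letters stood in 24.6% of member promoters and 20.2% of all, and CCAAT letters in 63.9% and 41.1%. Members with CHR letters had a median of -0.17 over 14 genes, against -0.060 for all such genes, and members with CCAAT letters -0.046 over 37 genes, against -0.018. Letters of TEAD sites (GGAATG) stood in 8.20% of member promoters and 16.6% of all, and those of AP-1 sites (TGAGTCA or TGACTCA) in 1.64% and 5.95%. E-box letters stood in 16.4% and 8.09%, and among genes with a peak near a TSS in 9 of 55 members and 1043 of 8761 genes. Those 9 members had a median of -0.022. The shares of promoters over all genes count genes without a peak too. A match of letters is not evidence of binding.

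**Figure D2:**
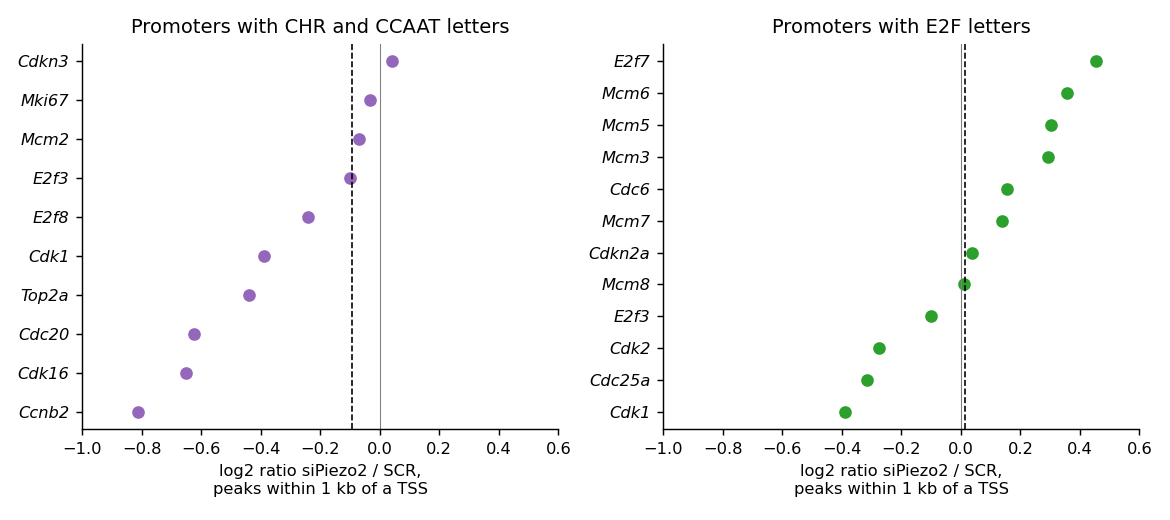
Points are member genes with CHR and CCAAT letters (left, 10 genes) or E2F letters (right, 12 genes) in a RefSeq promoter, and the x axis is the log2 ratio of siPiezo2 over SCR of the densities within 1 kb of a TSS. The dashed line is the median of all genes with the same letters, -0.092 on the left and 0.013 on the right. On the left 9 of 10 genes lie below 0, and on the right 4 of 12 do.

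The 9 cyclin genes had a median of -0.14. Ccnb2 and Ccne2 (22.2%) were lower by more than 1.5-fold, against 6.6% of all genes, and none was higher, against 1.54%. Ccne2 was not past 1.5-fold with any other scaling. Relative to all genes the group stood 0.050 lower, and it stood lower with each other scaling too. Ccnb2, a B-type cyclin of the mitotic CDK1 kinase, had 1 peak, 49 bp before its start on chromosome 9 (70328700 to 70329056). There SCR had a density of 28.0 and siPiezo2 15.5 (66 and 25 reads), and the log2 ratio was -0.81 (interval -1.54 to -0.13). It was the lowest ratio of the 75 genes, and the peak was called in SCR only. Ccnb1, the other B-type cyclin, had 38.5 and 29.3 at its start, a ratio of -0.39 with an interval that reached 0.14. Ccne2, a cyclin E, had 2 peaks whose windows overlap, at the start with 27.7 and 21.2 and in intron 1 with 23.1 and 11.7. Their sum gave -0.61 (interval -1.11 to -0.13), whereas the start peak alone gave -0.37 (interval -1.01 to 0.25) and was not past 1.5-fold. Both peaks were called in SCR only.

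Ccne1, the other cyclin E, pointed the other way. Its start had 31.9 in SCR and 40.7 in siPiezo2, a ratio of 0.34 (interval -0.16 to 0.84), the highest of the cyclins. The D-type cyclins, which carry growth signals to CDK4 and CDK6, differed little between the libraries. Ccnd1 had 20.6 and 19.0 at its start and 18.3 and 25.8 in intron 3, together a ratio of 0.20 (interval -0.27 to 0.66). Ccnd2 had 34.0 and 35.6 at its start, and the gene's ratio was -0.017 (interval -0.43 to 0.39). Ccnd3, with 8 peaks over 90.5 kb, summed to 262 and 237, a ratio of -0.14 (interval -0.33 to 0.043). Inside Ccnd3 the peaks were not alike. The 3 peaks within 1 kb of a TSS had ratios of 0.094, -0.30 and 0.069, and 2 peaks in intron 1 were lower by more than 1.5-fold, with 35.8 and 23.4 in one and 18.0 and 8.57 in the other. Ccna2, the S and G2 phase cyclin of dividing cells, had 57.0 and 61.5 at its start (0.11), and the germline cyclin Ccna1 had a single weak intronic peak of 13.2 and 10.2, resting on 29 and 17 reads.

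Among the 4 CDKs that drive the cycle, 3 had ratios below 0 and Cdk4 was above. Their median of -0.23 lay 0.13 below that of all genes, and it lay below with each other scaling. Cdk4, a partner of the D-type cyclins, had 1 peak, 70 bp before its start on chromosome 10 (126899043 to 126899623), called in both libraries. The density was 47.8 in SCR and 73.3 in siPiezo2 (124 and 111 reads), a ratio of 0.61 (interval 0.22 to 0.99, widened 0.065 to 1.15). It was the highest ratio of the 75 genes, and with the recovered reads at equal totals it was 0.58, just short of 1.5-fold. Cdk1, the mitotic kinase, had 42.2 and 32.0 at its start, a ratio of -0.39 (interval -0.91 to 0.11), and Cdk2, the cyclin E and A partner, had 31.4 and 25.8, a ratio of -0.27. Cdk6 shares its task with Cdk4 but had no peak within 1 kb of a TSS. Its 8 intronic peaks, over 161 kb, summed to 213 and 188, a ratio of -0.18 (interval -0.39 to 0.027). Of these 4 were below 0 and 4 above, and 2 peaks in intron 2 were lower by more than 1.5-fold, with 36.4 and 20.8 in one and 21.8 and 12.9 in the other.

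The 6 CDKs linked to transcription held none past 1.5-fold, and their median of -0.096 lay 0.0031 below that of all genes, and 0.084 below it with the recovered reads at equal totals. They act in the general transcription factor TFIIH (Cdk7), in the Mediator kinase module (Cdk8 and Cdk19) and on elongating RNA polymerase II (Cdk9, Cdk12 and Cdk13). Ratios ran from -0.26 in Cdk7, with 57.5 and 47.9 at its start, to 0.11 in Cdk13, with 54.5 and 58.6 at its start. Cdk8 held the strongest peak of all members and opposite shifts within one gene. A peak in intron 2 on chromosome 5 (146197702 to 146198249) had 125 and 174 (352 and 245 reads), a ratio of 0.48 (interval 0.24 to 0.72). Peaks in intron 1, with 35.1 and 22.1, and in intron 4, with 51.4 and 31.0, were lower by more than 1.5-fold. The sum over the 5 peaks was 253 and 270, a ratio of 0.096, and the start peak alone gave 0.35 from 22.2 and 28.5. In Cdk9, an exon peak 2034 bp before a TSS had 20.5 and 12.9 (-0.64), and 3 peaks near its starts ranged from -0.10 to 0.10. Cdk12 stood at -0.11 and Cdk19 at -0.10.

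The 7 other CDKs are mostly less studied kinases, and 6 of 7 were below 0, against 62.6% of all genes, with a median of -0.21. This lay 0.12 below that of all genes and 0.0030 above it with the recovered reads at equal totals. The median of the group was then 0.046, so the count of 6 of 7 below 0 did not hold there. Cdk16, a kinase of the PCTAIRE group, had 1 peak 135 bp before its start on the X chromosome, with 50.2 in SCR and 31.6 in siPiezo2 (126 and 49 reads), a ratio of -0.65 (interval -1.16 to -0.17). Cdk18, of the same group, was lower at its start (33.1 and 16.9, called in SCR only), a ratio of -0.93 (interval -1.62 to -0.28). Its 4 other peaks were between -0.36 and 0.33, so that the gene as a whole stood at -0.23 (interval -0.49 to 0.026). Cdk17, the third of the group, stood at -0.21, with an intron 1 peak of 19.0 and 11.6 (-0.66).

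Cdk14 was the member with the most peaks, 18 in its introns over 567 kb, none within 1 kb of a TSS. It encodes a kinase that pairs with the membrane-bound cyclin Y. The densities summed to 453 and 349 (1077 and 560 reads), a ratio of -0.38 (interval -0.53 to -0.23, widened -0.59 to -0.16). Of the 18 peaks 15 were below 0 and 3 above, where 66.4% of all intron peaks farther than 1 kb from a TSS were below 0. The lowest were a peak in intron 13 with 23.6 and 10.5 (-1.10) and 1 in intron 1 with 30.5 and 14.3 (-1.04), and 2 more were lower by more than 1.5-fold. An intron 12 peak, 10.5 and 16.6 with 23 and 28 reads, was higher (0.62) and was the only member peak called in siPiezo2 alone. Of the 18 peaks 12 (66.7%) were called in SCR only, against 71.0% of such intron peaks, and 5 in both libraries. Over those 5 the ratio was -0.11, and with the recovered reads at equal totals the gene stood at -0.18. Cdk20, formerly named a CDK-activating kinase, had 68.4 and 84.9 at its start (0.31) and the highest ratio of this group, 0.15. Cdk15 (-0.071) and Cdk10 (-0.031) differed little.

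**Figure D3:**
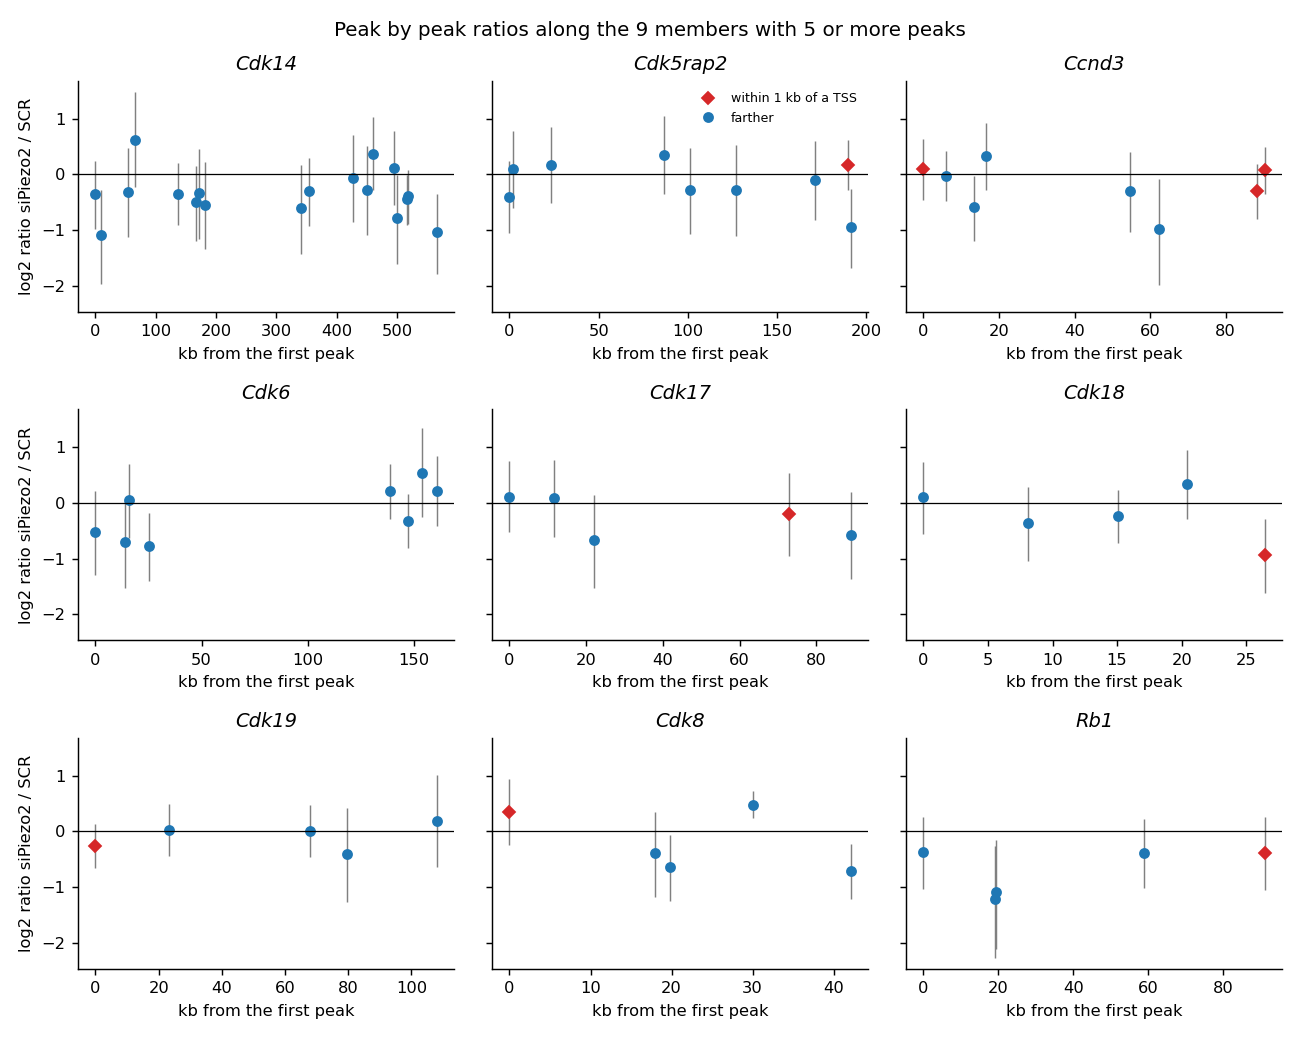
The 9 member genes with 5 or more peaks are shown peak by peak, with the distance from the first peak in kb on the x axis and the log2 ratio of siPiezo2 over SCR on the y axis. Red diamonds are peaks within 1 kb of a TSS, blue circles are farther, and bars are 95% counting intervals. In Cdk14 15 of 18 peaks lie below 0, against 66.4% of all intron peaks as far from a TSS, and in Cdk8 peaks at 0.48 and -0.71 lie in the same gene.

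None of the 7 CDK inhibitor genes was past 1.5-fold, and 3 were below 0 and 4 above. Their median of 0.022 lay 0.12 above that of all genes, and 0.22 below it with the recovered reads at equal totals. Cdkn1a encodes p21, a target of p53 that arrests the cycle, and had the highest ratio. Its start had 39.2 in SCR and 50.4 in siPiezo2, and a peak in intron 1 had 44.4 and 63.5. Together these gave 0.44 (interval 0.15 to 0.74, widened 0.020 to 0.87). The windows of these peaks overlap, and the start alone gave 0.36 (interval -0.092 to 0.80). Trp53, the gene of p53 itself, was level, with 46.1 and 45.4 at its start. Cdkn1b, which encodes p27, had 50.6 and 37.6, a ratio of -0.42 with an interval that just reached 0.038.

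The INK4 genes showed a mixed pattern. Cdkn2b and Cdkn2a are neighbours on chromosome 4. Cdkn2b (p15), a gene induced by TGF-β in many cells, had 49.5 and 36.9, a ratio of -0.42 (interval -0.89 to 0.047). Cdkn2a uses separate starts for its 2 proteins, the downstream one for p16 and the upstream one for ARF. The downstream start (89200241 to 89200792) had 27.0 and 18.6, a ratio of -0.51 (interval -1.19 to 0.13). The upstream start (89212762 to 89213157) had 21.4 and 31.0, a ratio of 0.52 (interval -0.074 to 1.11). The gene total therefore stayed at 48.4 and 49.7, a ratio of 0.037, although its starts went opposite ways, neither beyond its interval. Cdkn2c (p18) had 29.3 and 21.2 (-0.44). Cdkn2d (p19) held the strongest start peak of the members, 115 and 116 (0.022), and Cdkn3, which encodes a phosphatase of CDKs, stood at 0.038.

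The 12 genes of E2F factors, pocket proteins and Trp53 spread from -0.69 to 0.52. Their median of -0.029 lay 0.064 above that of all genes, and 0.069 below it with the recovered reads at equal totals. The pocket proteins, which hold E2F factors in check, did not go the same way. Rb1 had 5 peaks on chromosome 14, all below 0, with sums of 117 and 76.3 (272 and 123 reads) and a ratio of -0.61 (interval -0.93 to -0.30, widened -1.06 to -0.16). Its start had 25.4 and 19.2 (-0.39). A pair of neighbouring intron 17 peaks had 18.5 and 7.38 (-1.22) and 18.0 and 7.97 (-1.08), the former the lowest of all member peaks, and share most of their window and so their reads. With that window counted once, Rb1 stood at -0.53 and was not past 1.5-fold. Of its 5 peaks 4 were called in SCR only, against 64.0% of all peaks. The 1 called in both libraries stood at -0.38 (interval -1.04 to 0.26). Rbl1, which encodes p107, had a single peak in intron 14, 29.8 and 18.1 (71 and 29 reads), a ratio of -0.69 (interval -1.37 to -0.050). Rbl2, which encodes p130, the pocket protein of resting cells, had 39.9 and 51.1 at its start and 40.0 and 47.8 in an exon close by, together 0.30 (interval -0.0090 to 0.61).

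Among the E2F factors, E2f7, an atypical repressor, was the highest. It had 19.5 and 27.1 at its start and 12.8 and 19.8 in intron 12, a ratio of 0.52 (interval from 0.046 upwards). E2f6 had a single peak in intron 9, 34.7 and 48.8, a ratio of 0.48 (interval 0.016 to 0.94). Widened, the intervals of E2f7 (-0.15 to 1.20) and E2f6 (-0.17 to 1.13) both included 0. The activators stayed close to 0. E2f1 had 52.7 and 47.7 at its start (-0.14), E2f3 had 96.3 and 89.8 at its start and stood at -0.037, and E2f2 stood at 0.10 with no peak near a TSS. E2f4 (0.29), a partner of the pocket proteins in resting cells, was above 0, and E2f5 (-0.18) and E2f8 (-0.24) were below.

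Replication genes were the group farthest above the rest of the genome. None of the 11 was past 1.5-fold, 7 were above 0 and 4 below, and the median of 0.054 lay 0.15 above that of all genes. It lay 0.10 to 0.15 above with each other scaling. Near the TSS 8 of 11 were above 0, against 45.3% of the 12003 genes with such a peak, with a median of 0.14 against -0.037. MCM2 to MCM7 form the helicase that opens the DNA at origins. Mcm5 had 45.3 in SCR and 56.1 in siPiezo2 at its start (0.30), Mcm3 had 50.3 and 61.8 (0.29) and Mcm7 had 54.7 and 64.1 (0.23). Mcm6 had 22.6 and 29.2 at its start (0.36), but an intron 1 peak of 22.9 and 14.2 (-0.66) left the gene at -0.068, and Mcm2 stood at -0.070. Mcm10, which helps to activate the helicase, had the highest ratio of the group, 28.5 and 38.6, or 0.42 (interval -0.098 to 0.94). No interval of a single replication gene excluded 0. Mcm8 (0.0092) was level, and Mcm9 (-0.21), its partner in DNA repair, had 3 peaks below 0.

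Pcna, the sliding clamp of the replication fork and a common marker of proliferation, was level, with 66.8 and 70.2 at its start, a ratio of 0.071 (interval -0.29 to 0.43). Cdc6, which loads the helicase, stood at 0.054, with 26.9 and 30.1 at its start. Top2a, the topoisomerase that untangles chromosomes before mitosis, had the lowest ratio of the group, 38.2 and 28.0, or -0.44 (interval -0.99 to 0.093).

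The 6 genes of mitotic entry and exit had a median of -0.19, 0.096 below that of all genes, and 5 of 6 were below 0, against 62.6% of all genes. The group lay below all genes with each other scaling. Cdc20, the activator of the anaphase-promoting complex, had 1 peak 97 bp before its start on chromosome 4 (118294419 to 118294873), called in both libraries. The density was 62.1 in SCR and 39.9 in siPiezo2 (159 and 61 reads), a ratio of -0.62 (interval -1.07 to -0.19). Foxm1, the factor that acts with MuvB on mitotic genes, had 1 peak 919 bp before a TSS, called in SCR only. It had 27.9 and 18.0 (66 and 29 reads), or -0.60, with an interval that reached 0.050. Mki67, the most used marker of proliferation, was level, with 25.5 and 24.9 at its start, a ratio of -0.034 (interval -0.65 to 0.56). It stood above 0 with the median-of-ratios scaling (0.10) and with equal totals (0.051), so the count of 5 of 6 below 0 did not hold there. The CDC25 phosphatases, which activate CDKs, split, with Cdc25a at -0.32 and Cdc25b at 0.25. Cdc25c had 53.2 and 62.7 at its start and 2 weaker peaks past its end, and stood at -0.063 in sum. Its direction turned with the setting, to 0.075 with the median-of-ratios scaling, 0.024 with equal totals, 0.019 with the recovered reads, 0.10 with windows that share no reads and 0.23 at the start alone.

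The 13 partner and name-alike genes had a median of -0.057, 0.037 above all genes, with none past 1.5-fold. They ran from Cdk2ap1rt (39.0 and 28.6, or -0.43) to Ccnb1ip1 (47.8 and 59.0, or 0.30), and Cdk5rap2, a centrosome protein gene with 9 peaks, summed to 207 and 191 (-0.11). Its start peak stood at 0.17, and a peak 1894 bp before a TSS had 29.7 and 14.9 (-0.94). In Cdk2ap1 the promoter peak had 56.9 and 33.8 (-0.74) and overlaps in its window with a peak of 49.0 and 40.9, and the gene stood at -0.37. With windows that share no reads this promoter peak was left out, and the gene stood at -0.15 (interval -0.50 to 0.19). An intron 28 peak of Mcm3ap, whose product is an mRNA export factor, had the highest ratio of all member peaks, with 17.4 and 30.7 (41 and 50 reads), or 0.79 (interval 0.16 to 1.42). The activators of CDK5, Cdk5r1 (-0.057) and Cdk5r2 (-0.25), and Cdk5rap3 (-0.23) and Aurkaip1 (-0.31) were below 0, and Cdkn2aip (0.043), Cdkn2aipnl (0.15), Cdk2ap2 (0.17) and Cdk5rap1 (0.18) were above it. Without these 13 genes the median of the other 62 was -0.069.

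Peak by peak, the members again stayed at the level of the table. Of 168 peaks 24 (14.3%) were lower by more than 1.5-fold, against 14.2% of all peaks, and 4 (2.38%) were higher, against 3.21%. The split of lower and higher was 12 and 11 with the median-of-ratios scaling, 15 and 7 with equal totals, and 14 and 9 with the recovered reads. The shares lower were then 7.14%, 8.93% and 8.33%, against 8.84%, 10.5% and 7.02% of all peaks, and the shares higher were 6.55%, 4.17% and 5.36%, against 6.27%, 4.90% and 8.10%. The 24 lower peaks came from 17 genes, and 18 of them (75%) were called in SCR only, the deeper library, against 86.2% of all lower peaks. Over the 87 member peaks called in both libraries the median was 0.022, and over the 80 called in SCR only it was -0.31, against 0.0025 and -0.23 over all such peaks. The 4 higher peaks belonged to Cdk4, Mcm3ap, Cdk14 and E2f7.

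Peaks far from a TSS had lower ratios than peaks near one, as they did over the whole table. The 58 peaks of the annotation's promoter class within 1 kb had a median of -0.033, against -0.030 over all 9251 such peaks. Of these 6 (10.3%) were lower, in Cdk18, Ccnb2, Foxm1, Cdk2ap1, Cdc20 and Cdk16, against 6.33% of all, and 1 (1.72%), that of Cdk4, was higher, against 1.98%. All 80 member peaks within 1 kb by distance alone had a median of -0.063, and the 88 farther away had -0.29, against -0.042 and -0.17 over all peaks. Of the 88, 65.9% were below 0, against 66.2% of all such peaks, and 18 lay in the introns of Cdk14 alone. Of the farther peaks 17 (19.3%) were lower and 3 (3.41%) higher, against 16.4% and 3.55% of all such peaks, and 74 lay in introns, with a median of -0.28 against -0.17 for all intron peaks as far from a TSS. Among the 25 genes with peaks of both kinds, the farther peaks had the lower ratio in 15. The farther peaks were weaker, with a median SCR density of 21.4 against 40.0 near the TSS, and the part of the level in this difference was not tested.

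**Figure D4:**
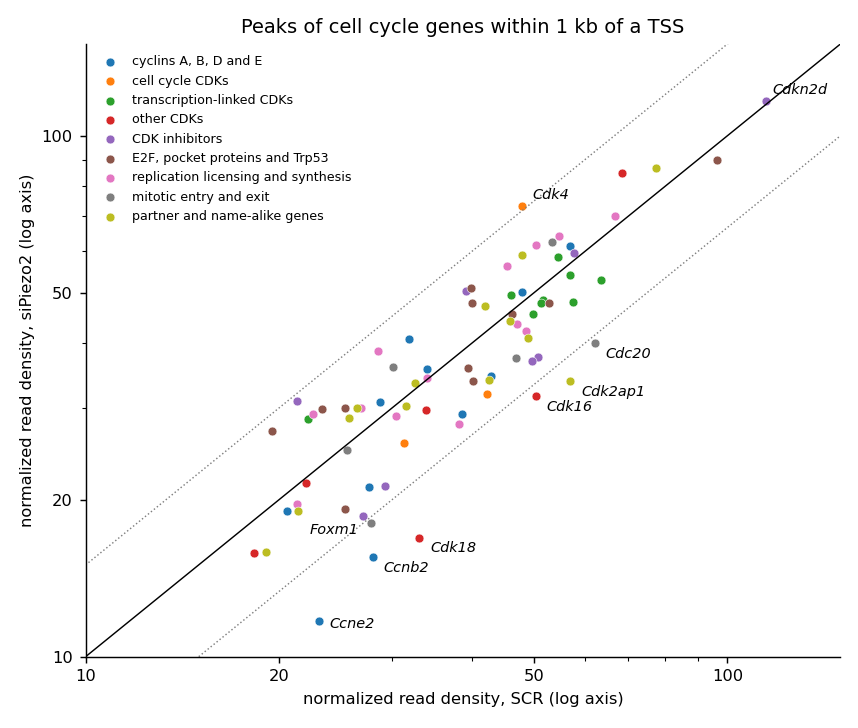
Each point is 1 of the 80 member peaks within 1 kb of a TSS, with the normalized read density in SCR on the x axis and in siPiezo2 on the y axis, both on log axes. The solid line is equality, the dotted lines are 1.5-fold, and colours are role groups. Cdk4 lies at the upper dotted line, 7 peaks are lower by more than 1.5-fold, and Cdkn2d, at 115 and 116, is the strongest.

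Beyond the members, 127 other cell cycle genes were listed by function, and 116 had a peak. Their median log2 ratio was -0.042, with 6 (5.17%) lower and 2 (1.72%) higher by more than 1.5-fold, close to the 6.6% and 1.54% of all genes. The 33 genes of DNA replication had a median of -0.0028, with 3 lower and 0 higher. These were Fen1, the flap nuclease (51.4 in SCR and 31.6 in siPiezo2, or -0.68), Cdc45, a partner of the MCM helicase (165 and 109, or -0.59), and Mcmbp, an MCM-binding protein (155 and 103, or -0.59). The 46 genes of mitosis had a median of -0.060, with 1 lower and 2 higher. Anapc7, a subunit of the anaphase-promoting complex, was lower (84.5 and 54.3, or -0.63). Fzr1, the other activator of that complex, was higher (44.5 and 71.0, or 0.66), as was Pkmyt1, a kinase that restrains CDK1 (75.0 and 115, or 0.61). Cdc20 and Fzr1, the activators of the same complex, thus lay on opposite sides. The 37 genes of checkpoints and regulation had a median of -0.029, with Lin9, a MuvB subunit (27.7 and 14.3, or -0.91), and Mdm2, which degrades p53 (48.3 and 31.5, or -0.60), lower.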

How the data were processed

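ATAC-seq libraries of SCR and siPiezo2 cardiac fibroblasts, 1 of each, were compared. The labels' processing notes name BWA 0.7.12 and mm10. However, of 16254 genes shared with a GRCm38 annotation 185 had the same start and end in the table, so peak positions are given as the table has them and no sequence was read by them. The sequences are RefSeq's (GRCm38.p6). The deposited signal columns hold read densities that the authors normalized, peak by peak, along a line fitted to log2 ratio against mean log2 density. The table's further columns hold the authors' own comparison (log2 ratios, mean log2 densities and p-values) and were not used. The ATAC-seq paragraph of the study's methods describes minced tissue and another kit than the labels do, whereas its reagent list names the kit of the labels.

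The fit (intercept -0.25, slope 0.17) was inverted, which gave whole reads, to within 0.05 reads, for 100% of peaks. Log2 ratios used a pseudocount of 1. The scripts (scipy 1.17.1 and pandas 2.3.3 under Python 3.11.15) were tested on simulated data. Members and lists were chosen with earlier results of these data known. Named are the members past 1.5-fold, the strongest, lowest and highest of each role with at least 50 reads, 15 well-known genes, peaks past 1.5-fold and the strongest start peaks. Other members are given to account for all 75. The functional split of other cell cycle genes was made after the members' values were seen. Peaks of 13 members overlap in their windows. Symbols come from the table's nearest-gene annotation, and intergenic peaks are not part of a gene's sum.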

Additional observations from a re-analysis of the deposited data

How the results depend on the processing

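No paired analysis was possible because each condition has 1 library, and no library could be left out. With the median-of-ratios scaling the median of member genes was 0.069, beside 0.043 over all genes, and that of promoter peaks 0.10, beside 0.11 over all promoter peaks, and the counts lower and higher were 1 and 3 genes and 12 and 11 peaks. With equal totals over all peaks they were 2 and 2 genes and 15 and 7 peaks, and with the recovered reads at equal totals 3 genes lower and 14 and 9 peaks. At a threshold of 2-fold 0 and 0 genes and 4 and 0 peaks passed, since fewer can pass, against 0.84% and 0.15% of all genes, and 2.38% and 0% of member peaks stand against 2.76% and 0.50% of all peaks. Over peaks called in both libraries 3 (4.84%) and 2 (3.23%) of 62 genes passed, against 3.01% and 2.41% of all genes, and 6 (6.90%) and 2 (2.30%) peaks, against 5.79% and 4.41%. Over peaks within 1 kb of a TSS 7 (8.75%) and 1 peaks passed, against 6.91% and 2.08%, and with the strongest peak of each gene 2 genes (2.67%) were higher, against 2.61%. The cause of these moves was not tested. With windows that share no reads, 5 genes (6.94%) were lower and 1 higher of 72, against 6.68% and 1.58%. The 12 intervals that excluded 0 became 4 when widened and 9 with such windows, both chosen after seeing the data, as was the count of promoter peaks by distance alone. A pseudocount of 0.1 and a minimum of 50 reads moved no count by over 1.5 times. Of 260 values of the 39 named genes under the alternatives, 251 stayed within the counting interval, 9 left it and 0 calls changed sign. The 9 were of Cdk14, Cdk5rap2, Ccnd3, Cdk8 and Cdkn2a. Much of this tally was fixed beforehand, since genes with 1 peak keep their value where only the choice of peaks changes. Only genes past 1.5-fold could be counted as changed in sign. Depth limits single genes: at 66 and 25 reads the interval of Ccnb2 spans -1.54 to -0.13.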

Other observations

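Peaks between genes were kept out of the sums above. Of these, 46 lay nearest to the TSS of 22 member genes, at a median distance of 14.7 kb, and their median log2 ratio of siPiezo2 over SCR was -0.090, against -0.18 over all 19430 distal intergenic peaks. In the siPiezo2 library 5 of them (10.9%) were lower and 2 (4.35%) higher by more than 1.5-fold, against 17.3% and 4.02% of all distal intergenic peaks. Ratios were below 0 in 27 (58.7%), against 66.3%.

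The lower ones included a peak 3.73 kb before Cdk14, with densities of 24.4 in SCR and 10.5 in siPiezo2 (-1.14), and a peak 50.6 kb before Cdk13, with 37.8 and 17.0 (-1.11). The peak nearest to Cdk14 lay on the same side as most of the peaks inside that gene. It was called in SCR only, as were the other lower ones and 86.2% of all lower peaks of the table. A peak 14.9 kb before Cdk20 had 19.2 and 8.59 (-1.07), and a peak 61.0 kb past the start of Ccna1 had 19.2 and 9.19 (-0.98). Both higher peaks lay before Cdkn2aipnl, at 26.9 kb with 26.1 and 43.6 (0.72) and at 21.9 kb with 18.2 and 31.4 (0.76). The 5 intergenic peaks nearest to Ccne1 ranged from -0.46 to 0.49, and the highest, 14.5 kb past its start, had 35.4 and 50.2. The nearest TSS does not show which gene a distal peak acts on.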
